A study of Mus musculus with 8 samples.

Results

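Polycomb repressive complexes are assemblies of chromatin proteins that keep developmental genes silent in cells where those genes are not used. PRC2 places methyl groups on histone H3 (the H3K27me3 mark) through its catalytic subunit, Ezh2 or the related Ezh1, which works only when bound to the scaffold proteins Eed and Suz12. Accessory proteins such as Jarid2 and Mtf2 help bring PRC2 to its target sites. PRC1 contains a chromodomain protein of the Cbx family that binds the methylated histone, and pluripotent and differentiated cells are known to use different Cbx proteins. The genes described here were the rows of the gene table with the symbols Ezh1, Ezh2, Eed, Suz12, Jarid2 and Mtf2 for PRC2 and Cbx2, Cbx6, Cbx7 and Cbx8 for PRC1. They are 10 of the 24354 genes listed, and all 10 had a mean FPKM (fragments per kilobase of transcript per 1000000 mapped fragments) of at least 1 in at least 1 group and were tested.

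The study fused mouse extended pluripotent stem cells (EPSCs) with neural stem cells (NSCs) and asked whether the somatic partner takes on the state of the pluripotent one. Poly-A RNA was sequenced from 8 libraries, with 2 libraries from each of 4 groups, namely embryonic stem cells (ESCs), both fusion partners and the fused cells, called hybrid cells. The ESCs were wild-type E14 cells, a long-established line, grown with serum and leukemia inhibitory factor. The EPSCs were wild type, came from C57BL/6 embryos, and were grown in N2B27 medium with leukemia inhibitory factor, CHIR99021, dimethindene maleate and minocycline (the LCDM condition). The NSCs were heterozygous for the OG2 and ROSA26 transgenes, which drive GFP from the distal enhancer of Oct4 and lacZ in all cells, and were grown on gelatin with EGF and FGF2. Hybrid cells were made with polyethylene glycol, picked as Oct4-GFP+ colonies, cloned from single cells and kept in the LCDM condition. They were near-tetraploid and carried the NSC transgenes. EPSCs and hybrid cells shared the medium and a layer of inactivated C3H mouse embryonic fibroblasts. ESCs were also on inactivated embryonic fibroblasts and NSCs had none, so that cell type, medium and feeder layer cannot be told apart in comparisons with NSCs, nor can line and medium in comparisons with ESCs. No group was treated further. The labels read p15 for EPSCs and p10 for hybrid cells. These may be passage numbers, and such a difference cannot be told apart from fusion. Each group is 1 line, so the p-values below measure the spread between 2 samples of a line and not between lines.

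The labelled cell types were checked against their markers. Summed FPKM of 5 pluripotency genes (Pou5f1, Nanog, Zfp42, Esrrb and Tdgf1) lay between 1725 and 2288 in the ESC, EPSC and hybrid libraries and at 0.55 and 0.519 in the NSC libraries. Summed FPKM of 5 neural stem cell genes (Nes, Pax6, Fabp7, Olig2 and Sox1) was 3258 and 3188 in NSCs and at most 11.9 elsewhere. Fibroblast genes were also present, and their sum over 8 genes was 4.97 and 5.11 in NSCs, 11.1 and 12.1 in ESCs, 73.9 and 72.1 in EPSCs and 285 and 212 in hybrid cells. Pearson's r between the log2 values of both libraries of a group, across genes, was 0.988 to 0.995. From the smallest steps between FPKM values, depth was estimated at 21900000 to 32600000 fragments per library, with the ESC libraries deepest. In bulk RNA, fewer cells of a type and less RNA per cell cannot be told apart.

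Promoter sequences are shown for Cbx7 and Cbx8, the PRC1 genes with the widest range of levels and opposite orders across the groups, and for Suz12 and Ezh2, the PRC2 genes whose levels in hybrid cells lay farthest above and farthest below those of EPSCs on the scale between the fusion partners. RefSeq windows on GRCm38.p6 matched 9 of the 10 genes, Cbx2 being the exception. Each line holds the 250 bases before a RefSeq transcription start in the direction of transcription, from chr15:79932647-79932896 (minus strand), chr11:119040914-119041163 (minus strand), chr11:79992856-79993105 (plus strand) and chr6:47595031-47595280 (minus strand). The Cbx7 window lies inside the gene span given below and the Ezh2 window mostly inside its span. The starts used for Cbx7 and Ezh2 are thus not the outermost of those genes. Capitals mark CCAAT, the letters read by NF-Y, on either strand (ATTGG on the strand shown), and TTTCCCGC, a form of the E2F motif.
Cbx7: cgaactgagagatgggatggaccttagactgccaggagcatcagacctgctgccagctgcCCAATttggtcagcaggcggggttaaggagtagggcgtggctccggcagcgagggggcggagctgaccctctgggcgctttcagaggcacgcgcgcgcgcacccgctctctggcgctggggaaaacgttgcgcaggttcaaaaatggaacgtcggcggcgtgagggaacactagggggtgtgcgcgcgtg
Cbx8: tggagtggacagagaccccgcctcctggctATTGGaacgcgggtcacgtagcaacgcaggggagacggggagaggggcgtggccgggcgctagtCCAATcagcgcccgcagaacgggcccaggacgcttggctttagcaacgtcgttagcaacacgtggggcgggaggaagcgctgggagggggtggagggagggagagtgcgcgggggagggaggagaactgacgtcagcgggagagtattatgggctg
Suz12: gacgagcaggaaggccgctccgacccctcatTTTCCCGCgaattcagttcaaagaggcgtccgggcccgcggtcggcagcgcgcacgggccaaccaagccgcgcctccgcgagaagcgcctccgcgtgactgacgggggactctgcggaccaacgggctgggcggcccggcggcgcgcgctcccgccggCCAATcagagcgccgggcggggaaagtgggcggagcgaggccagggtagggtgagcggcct
Ezh2: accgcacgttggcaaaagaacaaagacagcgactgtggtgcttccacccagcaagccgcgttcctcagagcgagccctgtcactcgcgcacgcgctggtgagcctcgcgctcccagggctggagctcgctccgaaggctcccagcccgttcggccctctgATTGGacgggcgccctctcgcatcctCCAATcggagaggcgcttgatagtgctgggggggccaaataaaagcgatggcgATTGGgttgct
All 4 windows hold many CpG dinucleotides, 23 in Cbx7, 22 in Cbx8, 37 in Suz12 and 23 in Ezh2, where the median over 32851 mouse promoters was 6. CCAAT was found on either strand in 33.8% of those promoters, and Ezh2 held 3 copies, the nearest beginning 11 bases before the start, Cbx8 held 2, and Suz12 and Cbx7 held 1 each. GGGCGG, the letters read by Sp1 (CCGCCC on the other strand; not in capitals), was in 32.7% of promoters and was found 3 times in Suz12, in 1 place each in Cbx8 and Cbx7, and not in Ezh2. TTTCCCGC (GCGGGAAA on the other strand) was in 0.895% of promoters and, among the 9 genes, only in Suz12. The letters TTTGGCGC (E2F, in 0.417% of promoters), AAGATGGC (YY1, 1.56%) and CCGGAAGT (ETS factors, 2.88%), and the palindromic NRF1 motif (0.782%), were searched on both strands and were in none of the windows of these genes. Cbx7 and Cbx8 share CpG-rich starts and CCAAT letters while their levels ran in opposite orders.

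Across the 4 groups, the genes fell into 3 patterns. Eed, Mtf2, Jarid2, Suz12, Ezh1 and Cbx7 were higher in every library of ESCs, EPSCs and hybrid cells than in either NSC library. Cbx6 and Cbx8 were highest in NSCs. Ezh2 and Cbx2 varied least, with highest-to-lowest ratios of group means of 1.53 and 1.37, against 37.0 for Cbx7 and 21.4 for Cbx8. The summed FPKM of the 10 genes was 565 and 572 in ESCs, 562 and 554 in EPSCs, 568 and 551 in hybrid cells, and 186 and 199 in NSCs. All genes together summed to 415239.7 and 415412.4 FPKM in the NSC libraries and to between 600674.0 and 653796.4 in the others. The size of the gap to NSCs thus depends on the scaling.

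**Figure D1:**
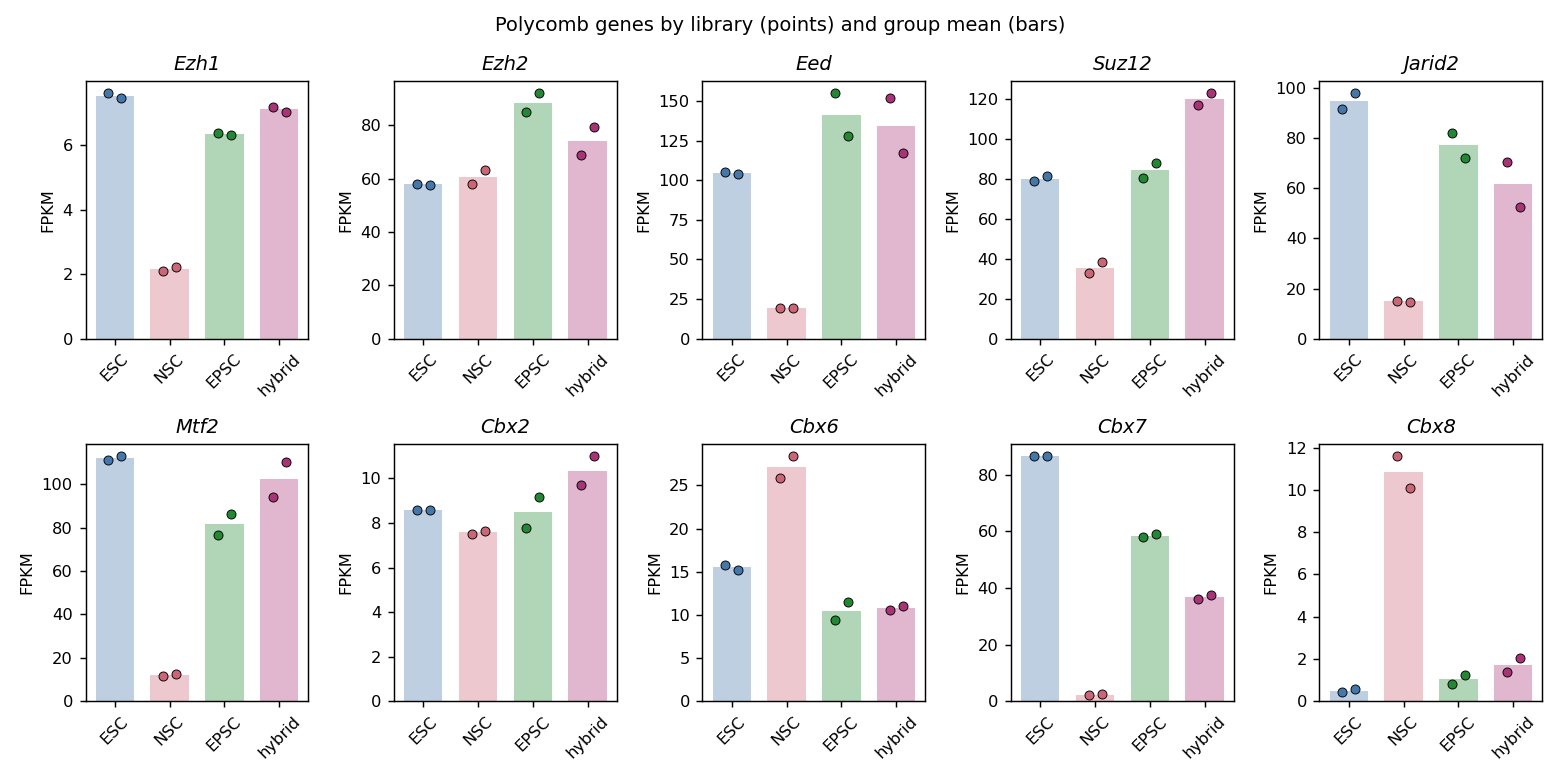
FPKM (y axis, a separate linear scale from 0 in each panel) of the 10 Polycomb genes by group; points are libraries and bars are means of 2. NSC libraries are the lowest for Eed, Mtf2, Jarid2, Suz12, Ezh1 and Cbx7 and the highest for Cbx6 and Cbx8, and hybrid libraries are the highest for Suz12 at 117 and 123.

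Ezh2, the main H3K27 methyltransferase of dividing cells, was at 58.1 and 57.6 FPKM in ESCs, 57.8 and 63.1 in NSCs, 85.0 and 92.0 in EPSCs, and 69.0 and 79.5 in hybrid cells. The EPSC libraries were the highest, the hybrid libraries came next, and the ESC and NSC libraries overlapped. EPSCs were 1.53-fold above ESCs (log2 difference 0.60 on the log2(FPKM + 1) scale, SE 0.08, adjusted p = 5.98e-04). Ezh2 was the only PRC2 gene of the 6 whose level did not differ by the test between ESCs and NSCs (log2 difference -0.06, 95% interval -0.25 to 0.13, adjusted p = 0.502). It was called lower in ESCs under scaling each library to the same sum (-0.61, adjusted p = 4.06e-04) and under quantile normalization (-0.29, adjusted p = 0.0190). The first scaling moved the median of all genes in this comparison from 0.03 to -0.47, and under quantile normalization it was 0.07. The gene lies at chr6:47530274-47595270 on the minus strand of GRCm38.

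Ezh1, the paralog with weaker methyltransferase activity that is known to persist in cells that have stopped dividing, was much lower. Its levels were 7.60 and 7.45 FPKM in ESCs, 2.09 and 2.21 in NSCs, 6.38 and 6.31 in EPSCs, and 7.19 and 7.03 in hybrid cells. All 6 pluripotent libraries stood above both NSC libraries, with EPSCs 2.95-fold and hybrid cells 3.30-fold above NSCs (adjusted p = 1.44e-06 and 7.83e-07). Neighbouring groups above the NSCs did not overlap, but neither ESCs against hybrid cells (adjusted p = 0.404) nor hybrid cells against EPSCs (adjusted p = 0.144) passed the test.

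The ratio of Ezh2 to Ezh1 FPKM within a library separated all 4 groups. It was 7.64 and 7.73 in ESCs, 9.59 and 11.3 in hybrid cells, 13.3 and 14.6 in EPSCs, and 27.6 and 28.5 in NSCs. Hybrid cells lay between ESCs and EPSCs, with a log2 ratio 0.42 below that of EPSCs and 1.43 below that of NSCs. With 2 libraries against 2, the exact permutation test (two-sided) gave p = 0.333 in each of the 6 comparisons, the smallest value it can give, and the adjusted value is the same.

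Eed, the scaffold subunit that binds methylated H3K27, was at 105 and 104 FPKM in ESCs, 19.6 and 19.5 in NSCs, 155 and 128 in EPSCs, and 152 and 117 in hybrid cells. The libraries of EPSCs and hybrid cells overlapped, and both groups were far above NSCs, by 7.24-fold and 6.88-fold (log2 differences 2.79 and 2.71, SE 0.13 for each). Between hybrid cells and EPSCs the log2 difference was -0.08 (95% interval -0.38 to 0.22, adjusted p = 0.657), and it changed sign without EPSC replicate 1 (0.06) or without hybrid replicate 2 (0.11). Eed lies at chr7:89954654-89980976 on the minus strand.

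Suz12, the other scaffold subunit, was at 79.2 and 81.3 FPKM in ESCs, 32.7 and 38.6 in NSCs, 80.7 and 88.0 in EPSCs, and 117 and 123 in hybrid cells. Both hybrid libraries were above every library of the other groups, while ESCs and EPSCs overlapped. Hybrid cells exceeded EPSCs 1.43-fold (log2 difference 0.51, SE 0.08, adjusted p = 0.00309), ESCs 1.50-fold (0.58, adjusted p = 6.79e-04) and NSCs 3.38-fold (1.73, adjusted p = 5.27e-07). These calls held under every alternative run, with adjusted p up to 0.0182 against EPSCs. Its partner Eed was not higher in hybrid cells than in EPSCs by the same test. Suz12 is at chr11:79993106-80034123 on the plus strand, directly after the window printed above.

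Jarid2, the substoichiometric cofactor that guides PRC2 and stimulates it, was at 91.7 and 98.0 FPKM in ESCs, 14.9 and 14.8 in NSCs, 82.2 and 72.1 in EPSCs, and 70.7 and 52.7 in hybrid cells. Among the pluripotent groups its level was lower from ESCs through EPSCs to hybrid cells with no overlap of libraries, and hybrid cells were 1.54-fold below ESCs (log2 difference -0.63, SE 0.13, adjusted p = 0.00402). EPSCs against ESCs missed the threshold (adjusted p = 0.0844) but passed it under scaling to the same sum (-0.36, adjusted p = 0.0359), quantile normalization (-0.40, adjusted p = 0.0189), a fit of those groups alone (-0.30, adjusted p = 0.0220) and without either hybrid library (-0.30 in both, adjusted p = 0.0120 and 0.0114). Against EPSCs the difference was -0.33 (95% interval -0.64 to -0.02, adjusted p = 0.0764), and without hybrid replicate 1 it was -0.54 (adjusted p = 0.00581). Jarid2 lies at chr13:44730774-44921643 on the plus strand.

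Mtf2 (also called Pcl2), a Polycomb-like protein that binds CpG-rich DNA and belongs to the form of PRC2 that lacks Jarid2, was at 111 and 113 FPKM in ESCs, 11.8 and 12.4 in NSCs, 76.8 and 86.4 in EPSCs, and 94.2 and 110.2 in hybrid cells. Every pluripotent library was above both NSC libraries, with ESCs 9.24-fold, hybrid cells 8.42-fold and EPSCs 6.73-fold higher. Within the pluripotent groups, EPSCs were the lowest, 1.37-fold below ESCs (log2 difference -0.46, SE 0.09, adjusted p = 0.00314). The hybrid cells were 1.25-fold above EPSCs (0.32, SE 0.09, adjusted p = 0.0226), a call lost without EPSC replicate 1 (0.24, adjusted p = 0.111), without hybrid replicate 2 (0.21, adjusted p = 0.0858) and with those groups fitted alone (0.32, adjusted p = 0.0752). Mtf2, at chr5:108065660-108109219 on the plus strand, shares 396 bases of exon with Tmed5 on the opposite strand, and Tmed5 was highest in NSCs at 20.6 and 23.8 FPKM.

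Among the Cbx proteins of PRC1, Cbx7 is the form known to predominate in pluripotent cells. It was at 86.6 and 86.5 FPKM in ESCs, 2.17 and 2.50 in NSCs, 58.0 and 58.9 in EPSCs, and 36.1 and 37.6 in hybrid cells. No groups overlapped, and every step of the order ESC, EPSC, hybrid, NSC passed the test. ESCs were 1.48-fold above EPSCs (log2 difference of EPSCs from ESCs -0.56, SE 0.06, adjusted p = 2.56e-04), EPSCs were 1.59-fold above hybrid cells (log2 difference of hybrid cells from EPSCs -0.65, SE 0.06, adjusted p = 4.19e-04), and hybrid cells were 15.8-fold above NSCs (3.51, SE 0.06, adjusted p = 4.95e-09). Cbx7 lies at chr15:79915804-79971143 on the minus strand, where an exon overlaps the span of the Apobec3 gene on the opposite strand. Apobec3 followed the same order, at 52.3 and 49.6 FPKM in ESCs, 29.7 and 29.2 in EPSCs, 22.6 and 23.8 in hybrid cells, and 6.95 and 7.24 in NSCs. The library kit keeps strand, and the strand setting used in counting is not given in the sources used here. Overlap between exons of both genes was not examined, and any part of shared reads in either gene was not tested.

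Cbx8, a chromodomain subunit known to be induced when pluripotent cells differentiate, ran the other way. It was at 0.432 and 0.580 FPKM in ESCs, 11.6 and 10.1 in NSCs, 0.842 and 1.25 in EPSCs, and 1.41 and 2.04 in hybrid cells. NSCs were 21.4-fold above ESCs, 10.4-fold above EPSCs and 6.29-fold above hybrid cells. At the estimated depth these levels correspond to about 48 and 58 fragments in the ESC libraries, 62 and 97 in EPSCs, 114 and 156 in hybrid cells, and 1115 and 981 in NSCs, and a count of 3 fragments would be 0.0272 to 0.0405 FPKM. Cbx8 was thus detected in all 8 libraries. Hybrid cells did not pass the test against EPSCs (ratio of means 1.65, log2 difference 0.41, 95% interval 0.06 to 0.76, adjusted p = 0.0570). They did with the replicate number as a block (0.41, adjusted p = 0.0426), without EPSC replicate 2 (0.55) or without hybrid replicate 1 (0.58). Against ESCs they passed (3.41-fold, 0.85, SE 0.15, adjusted p = 0.00169). Cbx8 sits at chr11:119036303-119040913 on the minus strand, near its relative Cbx2 (chr11:119023019-119031275, plus strand).

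Cbx6, a less studied chromodomain subunit, was at 15.8 and 15.2 FPKM in ESCs, 25.9 and 28.4 in NSCs, 9.43 and 11.5 in EPSCs, and 10.6 and 11.0 in hybrid cells. NSCs were the highest and ESCs the second, and EPSCs and hybrid cells overlapped (log2 difference 0.05, 95% interval -0.18 to 0.27, adjusted p = 0.736; -0.09 without EPSC replicate 1). NSCs exceeded EPSCs 2.60-fold and hybrid cells 2.52-fold. Cbx6 lies at chr15:79823898-79834333 on the minus strand and shares 563 identical bases of exon with Npcd on the same strand, so that reads there could be counted for either gene. Npcd was at 3.45 or less in every library.

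Cbx2, a subunit that compacts chromatin, was at 8.57 in both ESC libraries, 7.50 and 7.64 in NSCs, 7.79 and 9.16 in EPSCs, and 9.69 and 11.0 in hybrid cells. The neighbour of Cbx8 thus did not share its range across the groups. Hybrid cells were the highest, and only their difference from NSCs passed the test (1.37-fold, log2 difference 0.41, SE 0.10, adjusted p = 0.00450). Under scaling to the same sum that difference was -0.16 (adjusted p = 0.217), where the median of all genes moved to -0.51. Against EPSCs, hybrid cells passed with the replicate number as a block (0.26, adjusted p = 0.0418), without EPSC replicate 2 (0.37) or without hybrid replicate 1 (0.35). Against ESCs they passed with that block (0.25, adjusted p = 0.0382), without either EPSC library (0.25 in both) or without hybrid replicate 1 (0.33).

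Cbx7 made up most of the chromodomain transcripts in the pluripotent groups. Its share of the summed FPKM of Cbx2, Cbx6, Cbx7 and Cbx8 was 77.7% and 78.0% in ESCs, 76.3% and 72.9% in EPSCs, 62.5% and 60.9% in hybrid cells, and 4.60% and 5.13% in NSCs. Hybrid cells had a share 12.8 percentage points below EPSCs and 56.8 above NSCs, and no groups overlapped. The exact permutation test (two-sided, 2 against 2) gave p = 0.333 for each of the 6 comparisons, again the smallest it can give. In NSCs the rest was divided among Cbx6 (55.0% and 58.4%), Cbx8 (24.5% and 20.8%) and Cbx2 (15.9% and 15.7%).

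**Figure D2:**
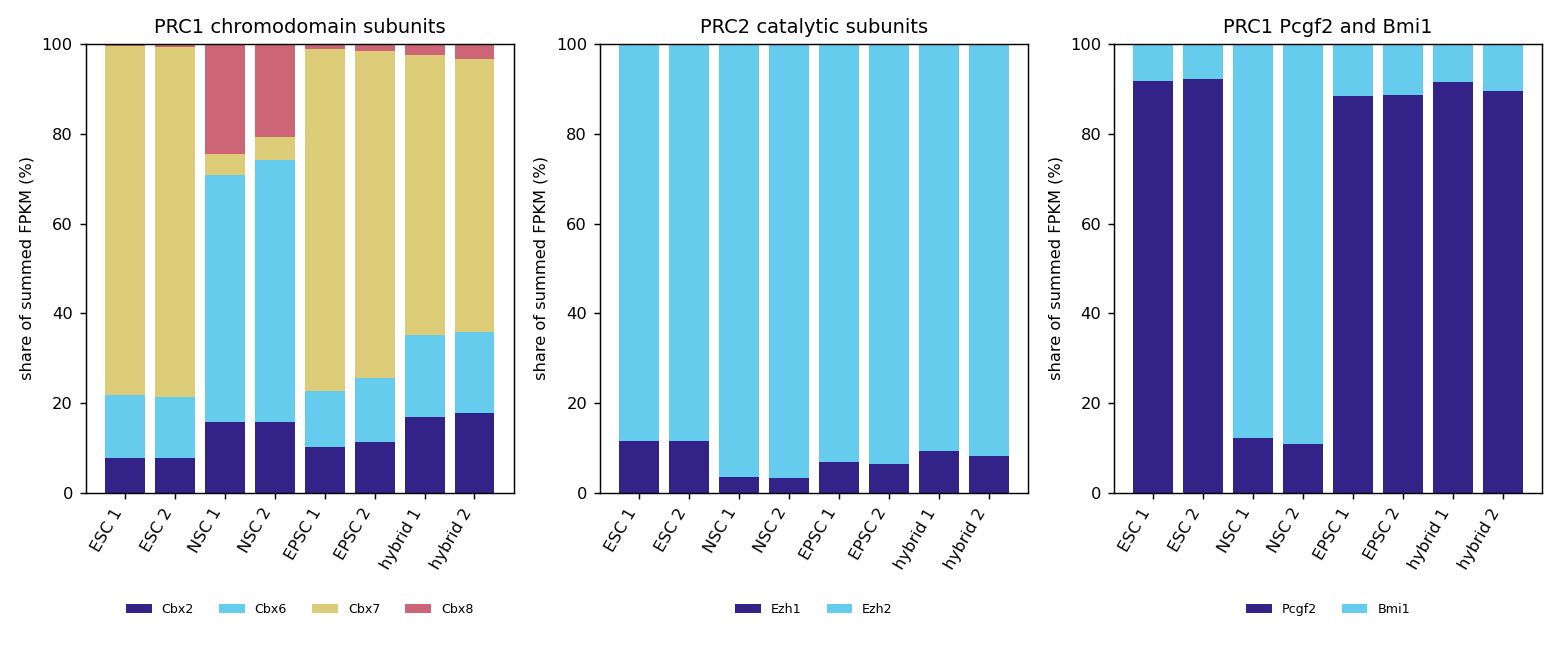
Share (%) of the summed FPKM of alternative subunits taken by each gene, with a stacked bar from 0 to 100 for each of the 8 libraries: Cbx proteins, Ezh1 with Ezh2, and Pcgf2 with Bmi1. Cbx7 and Pcgf2 take most of the bar in all libraries except those of NSCs, where Cbx6 is the largest of the Cbx genes and Bmi1 takes 87.7% and 89.0% of its pair.

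Before fusion, the partners differed in most of these genes. EPSCs against NSCs gave 7 genes higher in EPSCs (Ezh1, Ezh2, Eed, Suz12, Jarid2, Mtf2 and Cbx7), 2 lower (Cbx6 and Cbx8) and 1 not called (Cbx2), or 9 of 10, where 86.2% of the 13239 genes tested were called (45.2% higher and 41.0% lower). A count of 9 is close to that background. The study's methods define differential genes by size, with an average expression over 3 FPKM and a change of more than 3-fold. The methods do not say which average is meant, and the larger of the group means was used here as the size rule. By that rule 5 genes passed, where 28.8% of all genes did, and 4 passed as higher in EPSCs (Cbx7 25.0-fold, Eed 7.24-fold, Mtf2 6.73-fold and Jarid2 5.20-fold), where 12.3% of all genes did. Cbx8 alone passed as lower, by 10.4-fold, where 16.5% did. Limits of 2 FPKM and 2-fold, which the study also names, passed 8 of the 10 genes and 47.3% of all genes. The median log2 difference over the 10 genes was 1.22, beside 0.08 over all genes tested. Libraries of the groups did not overlap for 10 of 10, with 92.9% for all genes. Scaling every library to the same sum moved the median of all genes to -0.48. With that shift Ezh2 was at -0.06 (adjusted p = 0.537) and Cbx2 at -0.43 (adjusted p = 0.00831). Such a scaling moves all genes of a library alike, so these changes of sign are not particular to Ezh2 or Cbx2. Quantile normalization ended the Ezh2 call too (0.21, adjusted p = 0.0621) and called Cbx2 higher in EPSCs than in NSCs (0.46, adjusted p = 0.00177). Cbx2 was not called on the deposited scale (0.14, adjusted p = 0.196), and no direction is drawn for it between the partners.

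After fusion, hybrid cells against NSCs gave 8 genes higher (the same 7 and Cbx2) and 2 lower (Cbx6 and Cbx8), where 86.5% of all genes were called (44.5% higher and 42.0% lower). Libraries did not overlap for any of the 10, as for 92.7% of all genes. The size rule was passed by 7 genes, where 29.0% of all genes passed it, with 6 higher in hybrid cells (Cbx7 15.8-fold, Mtf2 8.42-fold, Eed 6.88-fold, Jarid2 4.15-fold, Suz12 3.38-fold and Ezh1 3.30-fold), with 12.7% for all genes, and Cbx8 6.29-fold lower, with 16.3% for all genes. The median log2 difference over the 10 was 1.55, beside 0.06 over all genes. Ezh2 had the smallest difference, 0.29 (SE 0.08, adjusted p = 0.0109). It turned to -0.32 (adjusted p = 0.0119) under scaling to the same sum, which moved the median of all genes to -0.51. The Ezh2 difference was -0.01 under quantile normalization, and its call was lost without NSC replicate 1 (0.23) or hybrid replicate 2 (0.19). This comparison and that of EPSCs share the NSC libraries.

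Hybrid cells against EPSCs, the comparison of the fusion product with its pluripotent partner, gave smaller differences. Suz12 (log2 difference 0.51) and Mtf2 (0.32) were higher, Cbx7 (-0.65) and Ezh2 (-0.25, SE 0.08, adjusted p = 0.0402) were lower, and 6 genes were not called. The 4 called of 10 compare with 44.4% of all genes (22.5% higher and 21.9% lower), so the count stands near the background. None of the 10 passed the size rule, which 1.59% of all genes passed, and limma gave 7 of the 10 an unadjusted p under 0.05, as it did 52.6% of all genes. Libraries did not overlap for 8 of the 10, with 68.1% for all genes. The median over the 10 was 0.09, beside 0.00 over all genes. The Ezh2 call was lost in 7 of the 8 fits that left out a library, all but the fit without hybrid replicate 2. In those 7 the difference ran from -0.31 (without EPSC replicate 1) to -0.15 (without hybrid replicate 1), and it was -0.25 without an ESC or NSC library. The call was also lost under scaling to the same sum (-0.26, adjusted p = 0.058) and quantile normalization (-0.21, adjusted p = 0.0932). So it was without the low-value filter (-0.25, adjusted p = 0.0667) and with the 2 groups fitted alone (-0.25, adjusted p = 0.104). The number called ranged from 2 without EPSC replicate 1 to 6 without hybrid replicate 1, and with the 2 groups fitted alone it was 2. Over all genes 35.9%, 41.3% and 29.1% were called in those fits.

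Fibroblast genes moved with this comparison. All 8 genes of that list were called higher in hybrid cells than in EPSCs, where 22.5% of all genes tested were. Their median log2 difference was 1.68, beside 0.0 over all genes (Pdgfrb reached the filter only in hybrid cells). Among them were Col1a1 (61.0 and 46.2 against 13.7 and 15.7 FPKM), Col1a2 (67.0 and 48.5 against 18.0 and 18.0) and Dcn (41.7 and 33.9 against 10.8 and 9.70). None of the 8 was at 0 in any EPSC or hybrid library. The part of feeder cells in the Polycomb differences was not tested. Ezh2 transcripts are known to be more abundant in proliferating cells. Proliferation genes had summed levels over 11 genes of 2125 and 2060.3 in EPSCs, 2122 and 1992 in hybrid cells, 1777 and 1762 in ESCs, and 1262 and 1283 in NSCs. Of the 11 genes, 2 were called higher and 4 lower in hybrid cells than in EPSCs. Over all genes 22.5% were called higher and 21.9% lower. These sums are on the deposited scale, where all genes together summed to less in NSCs than in the other groups, and their order depends on the scaling. Mki67 (100.5 and 104 FPKM) and Top2a (181 and 186) were highest in NSCs, against the order of the sum on that scale. The part of proliferation in the Ezh2 levels was not tested.

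**Figure D3:**
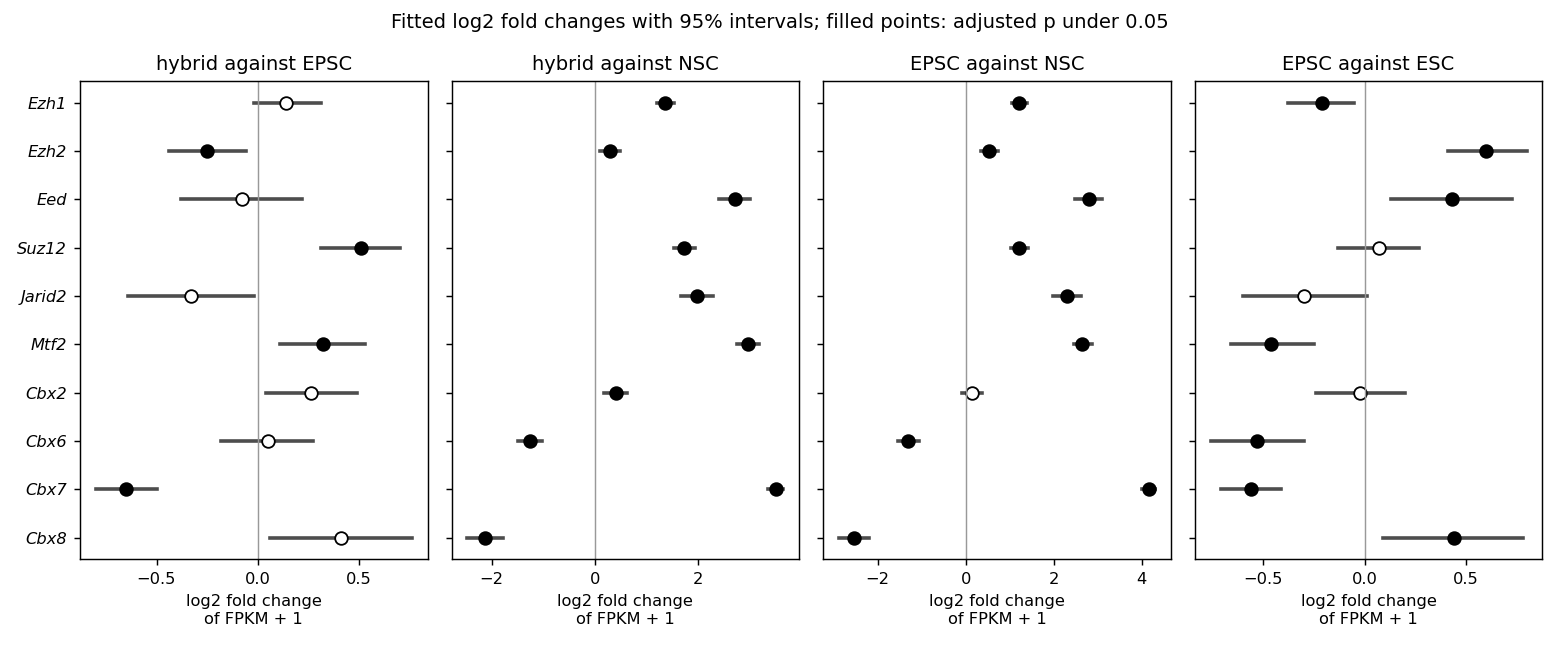
Log2 differences of FPKM + 1 (x axis, a separate scale in each panel) for the 10 Polycomb genes in 4 comparisons, with 95% intervals as lines; filled points have an adjusted p under 0.05. For EPSCs and hybrid cells against NSCs the differences run from -2.54 to 4.16, while between hybrid cells and EPSCs they run from -0.65 to 0.51.

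Against ESCs, EPSCs had Ezh2 (log2 difference 0.60), Eed (0.43, adjusted p = 0.0223) and Cbx8 (0.44, adjusted p = 0.0354) higher, and Cbx7 (-0.56), Cbx6 (-0.53, adjusted p = 0.00247), Mtf2 (-0.46) and Ezh1 (-0.21, adjusted p = 0.0330) lower. These were 7 of 10, where 61.0% of all genes were called (33.7% higher and 27.3% lower). Libraries did not overlap for 8 of 10, with 83.3% for all genes, and none passed the size rule, which 4.72% of all genes passed. The count fell to 4 without either ESC library or either NSC library, as Eed, Cbx8 and Ezh1 lost their calls (adjusted p from 0.0502 to 0.173 in those fits), and Ezh2, Mtf2, Cbx6 and Cbx7 were called in each. Over all genes 46.1% and 46.4% were called without an ESC library and 56.7% and 56.8% without an NSC library. Hybrid cells against ESCs gave 4 higher (Ezh2 0.35, Eed 0.35, Suz12 0.58 and Cbx8 0.85) and 3 lower (Jarid2 -0.63, Cbx6 -0.49 and Cbx7 -1.21), or 7 of 10 where 65.5% of all genes were called (35.3% higher and 30.2% lower). Libraries did not overlap for 10 of 10, with 83.8% for all genes, and none passed the size rule (6.68% of all genes). On the log2(FPKM + 1) scale Cbx7 had the largest of these differences, at 2.35-fold below ESCs, although by the ratio of means the low gene Cbx8 stood 3.41-fold above. Eed had an adjusted p of 0.0442 that crossed the threshold in several alternatives, among them without hybrid replicate 1 (0.16, adjusted p = 0.226) and without either ESC library (0.36 and 0.34, adjusted p = 0.134 and 0.148). Fibroblast genes moved with both comparisons. Of the 8, 7 were called higher in EPSCs than in ESCs, where 33.7% of all genes were (median log2 difference 2.43, beside 0.04 over all genes). All 8 were called higher in hybrid cells than in ESCs, where 35.3% of all genes were (4.19, beside 0.04). Pdgfrb reached the filter only in hybrid cells. The part of fibroblast genes in the Polycomb differences was not tested. ESCs against NSCs gave 6 higher and 2 lower, where 84.7% were called (42.8% higher and 41.9% lower), and libraries did not overlap for 9 of 10, with 94.7% for all genes. In that comparison Cbx7 was 37.0-fold, Mtf2 9.24-fold, Jarid2 6.39-fold, Eed 5.34-fold and Ezh1 3.50-fold higher by the size rule and Cbx8 21.4-fold lower, where 11.7% of all genes passed it as higher, 15.9% as lower and 27.6% in either direction.

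The place of the hybrid cells between the fusion partners was expressed on the log2(FPKM + 1) scale, with 0 at the mean of NSCs and 1 at the mean of EPSCs. Eed and Cbx6 were at 0.97, Jarid2 at 0.86, and Cbx7 and Cbx8 at 0.84. Ezh2 stood lowest, at 0.53 (0.35 and 0.72 in the individual libraries), while Ezh1 and Mtf2 were at 1.12 and Suz12 at 1.41 (1.39 and 1.44). Over the 3809 genes that differed between the partners by the size rule, positions had a median of 0.97 and quartiles of 0.85 and 1.06. Ezh2 (1.46-fold between the partners), Suz12 (2.37-fold), Cbx6 (2.60-fold) and Ezh1 (2.95-fold) did not pass that rule. Their positions can therefore not be set against these quartiles. Between the partners, Ezh2 was at -0.06 under scaling to the same sum, which moved the median of all genes to -0.48. Quantile normalization put it at 0.21 (adjusted p = 0.0621), also not called. The Ezh2 position is thus given for the deposited scale only. Position cannot be read for Cbx2, since the partners did not differ by the test. Ezh1, Suz12, Mtf2 and Cbx2 were above all 4 parental libraries in both hybrid libraries, as were 18.7% of all genes tested. Set against the mean of the partners, hybrid levels were 2.18-fold for Mtf2, 2.00-fold for Suz12, 0.997-fold for Ezh2 and 0.290-fold for Cbx8. FPKM is a share of each library, so the genome content of near-tetraploid cells is not seen in it.

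**Figure D4:**
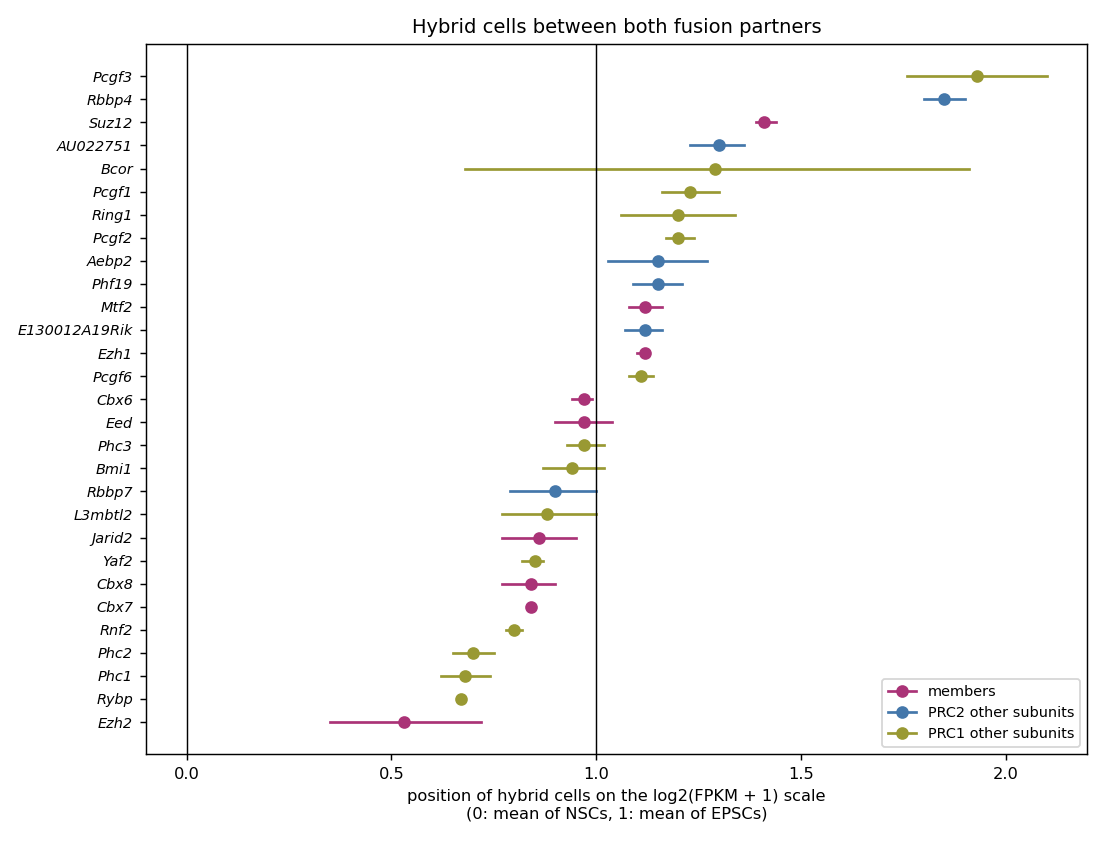
Position of hybrid cells on the log2(FPKM + 1) scale (x axis; vertical lines at 0 for the mean of NSCs and 1 for the mean of EPSCs) for Polycomb genes that differed between the partners; points are means and lines join the 2 hybrid libraries. Most genes sit near 1. Of the 10 genes, those shown run from Ezh2 at 0.53 to Suz12 at 1.41, and the other subunits Rbbp4 at 1.85 and Pcgf3 at 1.93 lie farther out.

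Other PRC2 subunits were taken from a list of 8, of which 7 passed the filter. In hybrid cells against EPSCs, 3 were higher and none lower, a count close to the 44.4% of all genes called. The 3 were the histone chaperone Rbbp4 (166 and 160.3 against 122 and 121 FPKM, log2 difference 0.42, adjusted p = 6.31e-04), E130012A19Rik (Epop, a PRC2 partner of pluripotent cells; 156 and 122 against 104 and 97.2, 0.45, adjusted p = 0.0117, and up to 0.0564 over the alternatives) and AU022751 (Ezhip, an inhibitor of PRC2; 1.97 and 2.33 against 1.23 and 1.68, 0.37, adjusted p = 0.0270, and up to 0.121). In EPSCs against NSCs, 5 were higher and 1 lower, where 86.2% of all genes were called. E130012A19Rik was 16.1-fold higher, and Phf19, the Polycomb-like relative of Mtf2, was 8.75-fold lower, at 0.892 and 1.48 FPKM against 10.4 in both NSC libraries. Mtf2 and Phf19 thus ran in opposite directions between the partners, and Phf1, the third Polycomb-like gene, was not called (log2 difference -0.19, adjusted p = 0.203). Hybrid cells had Mtf2 at 94.2 and 110.2 FPKM and Phf19 at 0.539 and 0.880. The list's median log2 difference was 1.02 in EPSCs against NSCs, beside 0.08 over all genes, and 0.17 in hybrid cells against EPSCs, beside 0.00.

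Of the other PRC1 genes, 17 were tested. EPSCs against NSCs gave 8 higher and 6 lower with a median log2 difference of 0.16, hybrid cells against NSCs 9 higher and 6 lower with a median of 0.50, and hybrid cells against EPSCs 6 higher and 4 lower with a median of 0.11. Over all genes 86.2%, 86.5% and 44.4% were called in these comparisons, so the first 2 counts are near the background. The 10 called in hybrid cells against EPSCs became 6 without EPSC replicate 1, where 35.9% of all genes were called, and 4 with those groups fitted alone, where 29.1% were. Some paralogs differed in opposite directions between the partners. Of the Ring-finger partners, Pcgf2 (Mel18) was at 33.3 and 36.4 FPKM in EPSCs and 5.47 and 5.20 in NSCs, while Bmi1 (Pcgf4) was at 4.35 and 4.66 in EPSCs and 39.1 and 42.3 in NSCs. Of the polyhomeotic subunits, Phc1 was 4.47-fold higher and Phc2 and Phc3 were 6.47-fold and 3.46-fold lower in EPSCs, and of the subunits of non-canonical PRC1, Rybp was 5.62-fold higher and Yaf2 8.40-fold lower. These pairs were chosen after their values were seen, and other paralogs, such as Ezh1 and Ezh2, were both higher in EPSCs.

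In hybrid cells, Phc1 with Phc2 and Rybp with Yaf2 lay on the NSC side of EPSCs. Pcgf2 did not, and Bmi1 lay there by its mean only (5.27 against 4.51 FPKM), with overlapping libraries. Phc3 was not called (log2 difference 0.04, adjusted p = 0.729). Among other called PRC1 genes, Rnf2 lay on the NSC side (position 0.80), while Pcgf3 (1.93) and Pcgf6 (1.11) lay beyond EPSCs, away from NSCs. So did the called PRC2 genes Rbbp4 (1.85), AU022751 (1.30) and E130012A19Rik (1.12). Kdm2b and Scmh1 were called too, but the partners did not differ in them by the test. The share of all genes called on the NSC side was not counted. Phc1 (62.2 and 52.0 against 98.7 and 84.8 FPKM, log2 difference -0.68, adjusted p = 0.00203) and Rybp (18.5 and 18.1 against 31.4 and 31.9, -0.76, adjusted p = 1.70e-04) were lower, and Phc2 (19.8 and 24.0 against 10.5 and 14.1, 0.79, adjusted p = 0.00374) and Yaf2 (4.65 and 5.23 against 2.84 and 4.13, 0.42, adjusted p = 0.0444, and 0.00669 to 0.169 over the alternatives) were higher. Cbx7, too, was below EPSCs in the direction of NSCs. Pcgf2 went the other way, at 46.8 and 53.1 FPKM in hybrid cells, above both EPSC libraries (0.50, adjusted p = 0.00280), and Bmi1 was not called (0.17, adjusted p = 0.340; -0.05 without hybrid replicate 2 and 0.39 without hybrid replicate 1, adjusted p = 0.0142).

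**Figure D5:**
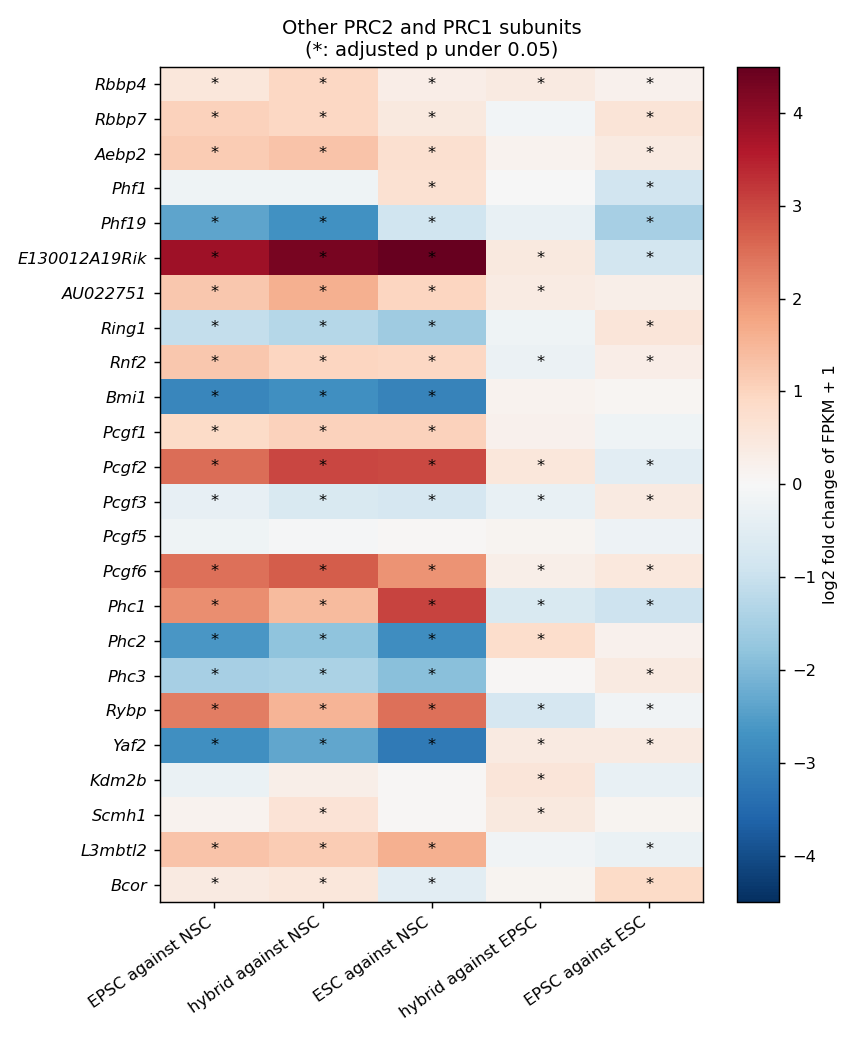
Log2 differences of FPKM + 1 (colour, red higher and blue lower in the group named before "against") for the other PRC2 and PRC1 genes tested, in 5 comparisons; asterisks mark an adjusted p under 0.05. Pcgf2, Phc1 and Rybp are red and Bmi1, Phc2 and Yaf2 blue against NSCs, and Phc1 and Rybp are blue in hybrid cells against EPSCs.

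Of 6 listed genes for enzymes that undo Polycomb marks and their partners, 5 were tested. EPSCs against NSCs gave 4 higher and 1 lower, where 86.2% of all genes were called. Kdm6a, the X-linked H3K27 demethylase, was 2.96-fold higher, and the related Kdm6b was 1.36-fold lower (log2 difference -0.41, adjusted p = 0.00932, and up to 0.0768 over the alternatives). Neither was called between hybrid cells and EPSCs (0.10 and 0.07, adjusted p = 0.361 and 0.643). In that last comparison, where 44.4% of all genes were called, Asxl2 was higher (0.31, adjusted p = 0.0118, and up to 0.0531 over the alternatives) and Bap1, the H2A deubiquitinase that works with Asxl proteins, was lower (-0.35, adjusted p = 0.00169).

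Textbook Polycomb targets were mostly near 0 in the pluripotent groups, and only 11 of 20 reached a group mean of 1 FPKM in at least 1 group and were tested. Pax3, Pax7, Nkx2-2 and Lhx2 reached it only in NSCs, Gata4 only in ESCs and Neurog1 only in EPSCs. The filter thus fixed that these genes differ from the group where they are high, and no counts are given over the list. Olig2, a neural gene, was at 0.0274 and 0.0746 FPKM in ESCs, 320.2 and 334 in NSCs, 5.89 and 6.09 in EPSCs and 4.06 and 3.56 in hybrid cells. It was called higher in EPSCs and hybrid cells than in ESCs (log2 differences 2.73 and 2.19, adjusted p = 1.17e-06 and 1.82e-06). In hybrid cells against EPSCs it was lower (-0.54, adjusted p = 0.00181), as was Gata4 (-0.64, adjusted p = 7.40e-04). Neurog1 was lower too (-1.19), but it had reached the filter only in EPSCs. Both Cdkn2a and Cdkn2b, cell cycle inhibitors of the Ink4a/Arf/Ink4b locus, were above 1 FPKM in every library. Cdkn2a was at 9.97 and 11.6 FPKM in ESCs, 33.0 in both NSC libraries, 13.5 and 12.7 in EPSCs, and 30.9 and 29.3 in hybrid cells (hybrid cells against EPSCs 2.30-fold, log2 difference 1.14, SE 0.08, adjusted p = 1.36e-04). Cdkn2b was at 2.64 and 2.21 in ESCs, 5.19 and 4.66 in NSCs, 2.33 and 2.53 in EPSCs, and 7.74 and 6.74 in hybrid cells (2.98-fold, 1.26, SE 0.10, adjusted p = 2.60e-04). For both genes the hybrid libraries lay above all ESC and EPSC libraries, and for Cdkn2a just below the NSC libraries. The summed fibroblast genes were also higher in hybrid cells (285 and 212 against 73.9 and 72.1), and their part in these levels was not tested.

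Genes whose pattern over the 8 libraries was most like that of a Polycomb gene were ranked among all 13239 genes tested. The measure was the root mean square distance between log2(FPKM + 1) values of the 8 libraries, after centring each gene. For Ezh2 these were Impa1 (0.0668), Matr3 (0.0768) and Pmf1 (0.0802). For Ezh1 they were Faf1 (0.0497), Tarbp2 (0.0534) and Emg1 (0.0563). For Cbx7 they were Elf3 (0.154), Slc2a3 (0.157) and Csrp2 (0.178). The nearest genes to Cbx7 thus lay farther from it than those of Ezh2 and Ezh1, and Slc2a3, a glucose transporter, was at means of 483 FPKM in ESCs, 361 in EPSCs, 254 in hybrid cells and 16.1 in NSCs. With 4 groups of 2 libraries, such likeness is a description.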

How the data were processed

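Poly-A RNA of 8 mouse libraries (2 per group) was sequenced as read pairs with a strand-keeping kit. According to the submitters' notes and the methods, the authors trimmed adapters, aligned to mm10 with STAR 2.7.9a, and deposited FPKM values made with Cuffnorm of Cufflinks 2.2.1; the annotation, the strand setting and the scaling between libraries are not given in the sources used here. Of 24354 genes listed, 5210 were at 0 in every library. Groups came from the sample labels, and every sample was used.

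Values were set as log2(FPKM + 1), so that fold changes of low genes are understated, and the 13239 genes that reached a group mean of 1 FPKM were fitted with limma 3.58.1 in R 4.3.3 (4 groups in 1 model, empirical Bayes with a mean trend, two-sided, Benjamini-Hochberg over all genes tested, called under 0.05). Fold changes in the text are ratios of mean FPKM. The size rule of the methods (larger group mean over 3 FPKM, ratio over 3) stands beside it. The Ezh2 to Ezh1 ratio and the Cbx7 share were compared with exact permutation tests (SciPy 1.17.1). The fit was tested on simulated data.

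FPKM gives no read counts. Depth was estimated from the steps of low values in 2247 single-transcript genes of at least 1500 bases, assuming fragments of 200 bases, and fragment numbers cover counting error only and are approximate. Gene positions and overlaps are from GENCODE on GRCm38, near-identical copies were searched with blastn 2.17.0 at 95% identity, and promoters are from RefSeq on GRCm38.p6.

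The genes and lists were chosen with earlier results of these data known. All 10 genes are named, and other genes come from the lists of PRC2, PRC1, opposing, target, proliferation and marker genes, or are the 3 most alike; some genes of those lists are not reported here. Alternatives were another pseudocount, no filter, other scalings, the replicate number as a block, each pair of groups alone, and each library left out. Replicate numbers in the labels are not stated to mark shared cultures.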

Additional observations from a re-analysis of the deposited data

How the results depend on the processing

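Between hybrid cells and EPSCs, 1 gene was called lower without the low-value filter, under scaling to a sum of 1000000 and under quantile normalization. With the 2 groups fitted alone, 2 were called, 1 higher and 1 lower. With the replicate number as a block, 4 were called higher (Cbx2 and Cbx8 added, adjusted p = 0.0418 and 0.0426), Cbx2 also passed against ESCs (0.25, adjusted p = 0.0382), and no other member count moved by over 1.5 times. The deviations of equal-numbered libraries correlated at -0.112 to 0.28, so the numbers are not taken to pair the libraries. Crossing the numbers in ESCs against NSCs, chosen after seeing the data, gave 8 genes called, as in the unpaired fit. Scaling to a sum of 1000000 turned Ezh2 to -0.32 in hybrid cells and -0.06 in EPSCs against NSCs, turned Cbx2 to -0.16, -0.43 and -0.35 in hybrid cells, EPSCs and ESCs against NSCs, and gave 4 genes lower in ESCs than in NSCs; it moved the median of all genes against NSCs to -0.51, -0.48 and -0.47 and the share of calls that were higher from 51.5%, 52.4% and 50.5% to 34.5%, 35.1% and 34.2%, in the order hybrid cells, EPSCs and ESCs. Quantile normalization called Cbx2 higher in EPSCs and in ESCs than in NSCs (0.46 and 0.48, adjusted p = 0.00177 and 0.00145), turned Ezh2 to -0.01 in hybrid cells against NSCs and Suz12 to -0.02 in EPSCs against ESCs. Pcgf2 in hybrid cells against ESCs, not called, was -0.02 and -0.01 under those scalings, -0.04 to 0.14 over the fits that left out a library. Size limits of 2 and 2 passed 8 genes in EPSCs against NSCs and 1 in hybrid cells against ESCs, with 47.3% and 16.4% of all genes. A pseudocount of 1 moved the log2 ratio of Ezh2 to Ezh1 against NSCs to -1.07, -0.68 and -1.50 and the difference in Cbx7 share to 53.0, 65.7 and 69.6 percentage points in hybrid cells, EPSCs and ESCs. The cause of these changes was not tested.

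Leaving out a library gave 2 to 6 genes called in hybrid cells against EPSCs (1 to 4 higher, 1 to 2 lower; 35.9% to 41.8% of all genes) and 4 to 8 in EPSCs against ESCs (1 to 3 higher, 3 to 5 lower; 46.1% to 65.5%). The log2 difference ran from -0.27 to 0.11 for Eed, -0.09 to 0.18 for Cbx6 and -0.05 to 0.39 for Bmi1 in hybrid cells against EPSCs, -0.12 to 0.09 for Cbx2 in EPSCs against ESCs, and -0.12 to 0.00 for Ezh2 in ESCs against NSCs, each changing sign in a fit where it was not called. In hybrid cells against NSCs, EPSCs against NSCs and ESCs against NSCs the ranges were 9 to 10, 9 to 9 and 8 to 8 (81.3% to 87.2%, 81.4% to 87.7% and 79.0% to 86.2% of all genes), and in hybrid cells against ESCs 6 to 8 (3 to 5 higher, 3 to 4 lower; 52.6% to 66.6%). With 2 libraries a group, a lone library is assumed to vary like the other groups. Depth limits mainly Cbx8, at about 48 to 156 fragments in the pluripotent groups.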
